A study of Drosophila melanogaster with 3 samples.

Results

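Stwl (stonewall) is a nuclear protein of Drosophila melanogaster, and the sites described here are the 300 at which its peaks were strongest in embryos. They are the 300 peaks with the highest signal value in the list that the authors retained after filtering by the irreproducible discovery rate (IDR), and 6941 other peaks of that list follow them. The filter keeps peaks found at similar ranks in separate replicates. The signal value is a peak height set by the authors' peak caller, so the height chose the set and is given below only as a description. The peaks come from chromatin immunoprecipitation and sequencing (ChIP-seq) of whole embryos aged 0 to 10 h, from 1 transgenic line that carries stwl with GFP fused to the C-terminus of its product. The protein was precipitated with an antibody against GFP from sonicated chromatin with a size range of 200 to 800 bp, in 3 biological replicates that form a single group. No second genotype, treatment or stage was compared. A whole embryo mixes all its cell types, so fewer bound cells and less binding per cell cannot be told apart. The lists hold no expression values, and the labelled stage could not be checked against marker genes.

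Stwl carries a MADF domain, a DNA-binding domain related to that of Myb proteins, and is known as a chromatin-associated protein needed to maintain germline stem cells in the ovary. In flies, promoters of broadly expressed genes often carry short sequence elements upstream of the transcription start site (TSS). Among these are Motif 1, bound by the zinc finger protein M1BP, the DNA replication-related element (DRE), bound by DREF, and Motif 7. ZIPIC and BEAF-32 are insulator proteins with short recognition sequences of their own. Such elements were searched around each summit, the base of highest signal in a peak.

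The sequences at the strongest summits show that no single element was shared by all of them. The lines give the 101 bases centred on the summit for 8 of the first 12 peaks, those on the chromosome arms from which sequence is shown here whose window holds no untranslated sequence, read 5′ to 3′ on the plus strand of the Release 6 assembly (dm6) from RefSeq. Capitals mark, on either strand, the letters of Motif 1 (GGTCACAC), DRE (TATCGATA), Motif 7 (CANCNCTA), ZIPIC (AGGGCTG) or the word CAACACTG described further on. Names are those of the gene with the nearest TSS, or of the gene that the text uses for the site.
stwl, rank 4, chr3L:14409480-14409580: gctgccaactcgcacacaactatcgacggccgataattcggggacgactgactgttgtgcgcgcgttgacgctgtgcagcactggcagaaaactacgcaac
CG34345, rank 5, chr2L:6622792-6622892: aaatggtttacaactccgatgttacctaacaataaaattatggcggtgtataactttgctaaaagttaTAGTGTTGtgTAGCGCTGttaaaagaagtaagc
near GATAe, rank 7, chr3R:16004157-16004257: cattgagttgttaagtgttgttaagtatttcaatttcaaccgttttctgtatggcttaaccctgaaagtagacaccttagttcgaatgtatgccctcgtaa
in an intron of pb, rank 8, chr3R:6709024-6709124: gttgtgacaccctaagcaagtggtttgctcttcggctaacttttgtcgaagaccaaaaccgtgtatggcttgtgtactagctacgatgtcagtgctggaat
Sox102F, rank 9, chr4:834982-835082: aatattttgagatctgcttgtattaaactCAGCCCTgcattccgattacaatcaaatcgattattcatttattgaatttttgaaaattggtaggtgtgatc
epsilonCOP, rank 10, chr2L:6488895-6488995: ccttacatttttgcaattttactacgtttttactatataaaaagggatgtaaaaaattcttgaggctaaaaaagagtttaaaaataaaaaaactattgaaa
Scm, rank 11, chr3R:9637612-9637712: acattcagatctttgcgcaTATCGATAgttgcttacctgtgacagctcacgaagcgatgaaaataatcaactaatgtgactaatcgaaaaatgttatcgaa
crol, rank 12, chr2L:11809443-11809543: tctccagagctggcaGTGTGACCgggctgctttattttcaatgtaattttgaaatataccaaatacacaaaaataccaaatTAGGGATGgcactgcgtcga
Of these 8 windows, those at stwl, near GATAe, in pb and at epsilonCOP held none of the 5 elements. The Scm window had a DRE, the crol window Motif 1 and Motif 7, the CG34345 window Motif 7 and the Sox102F window the ZIPIC letters.

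A further set of windows shows the elements at strong peaks of lower rank, and was chosen because each holds Motif 1 or CAACACTG. They lie at the polarity gene l(2)gl, at nuf, whose product works with Rab11 in vesicle recycling, at roX2, a long non-coding RNA of the dosage compensation complex, and at Phs.
l(2)gl, rank 15, chr2L:18832-18932: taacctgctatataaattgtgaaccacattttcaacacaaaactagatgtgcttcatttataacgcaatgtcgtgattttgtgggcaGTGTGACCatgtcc
nuf, rank 20, chr3L:14219531-14219631: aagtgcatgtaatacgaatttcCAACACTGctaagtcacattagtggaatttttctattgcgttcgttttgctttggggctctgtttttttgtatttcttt
lncRNA:roX2, rank 23, chrX:11578996-11579096: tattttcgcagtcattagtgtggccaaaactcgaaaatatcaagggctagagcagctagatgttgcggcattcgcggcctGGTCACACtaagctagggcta
Phs, rank 69, chr3L:15619735-15619835: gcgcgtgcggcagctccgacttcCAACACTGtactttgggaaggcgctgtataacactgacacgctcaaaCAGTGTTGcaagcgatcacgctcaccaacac
Motif 1 lies on the minus strand at l(2)gl and on the plus strand at roX2. The Phs window holds CAACACTG on each strand.

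The signal fell steeply over the first peaks and slowly after them. The highest value was 17416, rank 10 had 4842, rank 50 had 2579, rank 100 had 1855 and rank 200 had 1476. Over all 300 the median was 1639, with quartiles of 1407 and 2059, against a median of 399.9 for the other 6941 IDR peaks. The set is 4.14% of the IDR list and holds 16.1% of its summed signal. Only 15 of the 300 exceeded 4000 and 86 exceeded 2000. At the limit, rank 299 between Mon1 and mRpS2 had 1272.42 and rank 300 between ave and Rpn6 had 1271.98, while rank 301 at CG8187 and Vha36-1 had 1271.52 and rank 302 in CG11050 had 1271.47. The 300 intervals had a median width of 504 bp, against 311 bp for the other peaks, a measure that the same caller set.

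Every one of the 300 sites was found in all 3 replicate lists, each of which holds 30000 peaks, when the strongest summit within 150 bp was taken. Of the 300, replicate 1 placed 249 or 83% among its own 300 strongest, replicate 2 placed 235 or 78.3%, and replicate 3 placed 273 or 91.0%, a mean of 84.1% ± 6.42 (SD, n = 3). Among the 600 strongest of the lists lay 290, 289 and 300 of them. The lowest rank of any member was 985 in replicate 1, 1559 in replicate 2 and 459 in replicate 3. All 3 lists had 192 of the members among their first 300, a pair of lists had 74, a single list had 33, and CG5611, at ranks 387, 301 and 312, was in the first 300 of none. The set follows replicate 3 most closely, and the values of that list were also the largest, with 11292 at its first peak against 2904 in replicate 1 and 3278 in replicate 2. Each list has a scale of its own, so only ranks were compared between them. The IDR list was made from the same libraries and keeps peaks that recur between replicates. These counts and ranks are thus a description and no independent check of the sites.

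**Figure D1:**
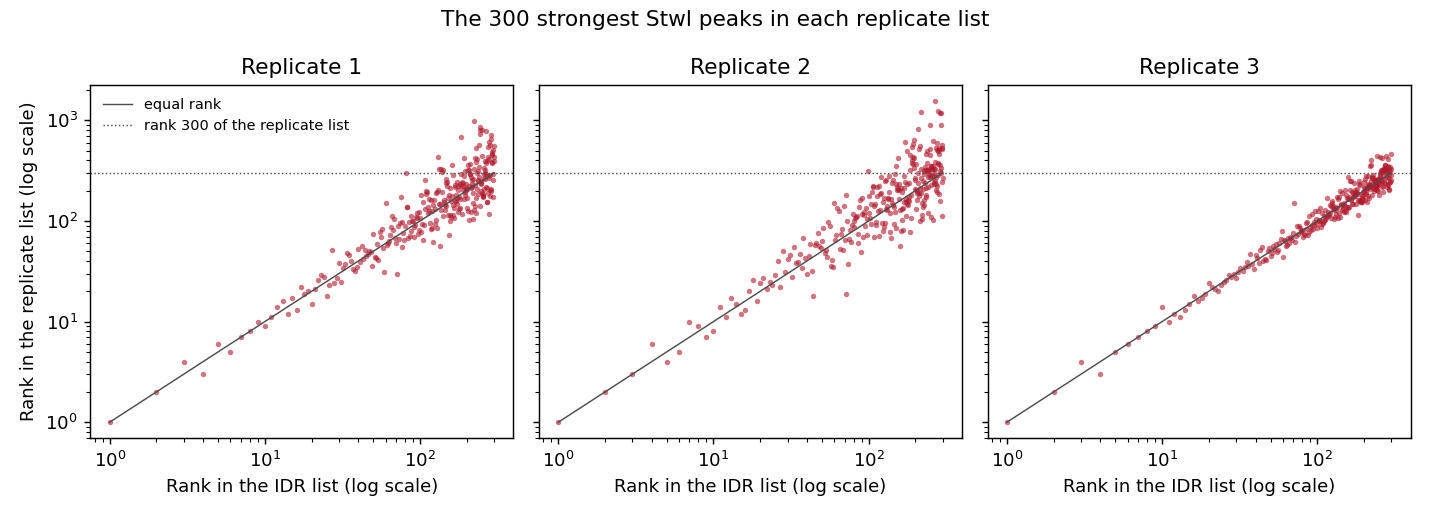
Each point is 1 of the 300 strongest Stwl peaks, with its rank in the IDR list on the x axis and its rank in a replicate list on the y axis, both on log scales. The first peaks lie on the line of equal rank in all 3 panels, the spread grows toward rank 300, and replicate 3 has the narrowest spread, with no rank over 459.

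The top of the list was nearly the same in every replicate. The first peak, upstream of ena, which encodes the actin regulator Enabled, ranked 1 in each list, with signal values of 2904, 3278 and 11292 in replicates 1, 2 and 3. The second, inside EcR, the gene of the ecdysone receptor, in an intron, ranked 2 in each, with 1887, 2134 and 9571. Prosbeta7, a subunit of the 20S proteasome, ranked 4, 3 and 4, and stwl itself ranked 3, 6 and 3. The first 12 members all ranked 14 or better in each list. Across the 300 sites, Spearman's rho of the ranks was 0.764 between replicate 1 and replicate 2, 0.728 between replicate 1 and replicate 3, and 0.687 between replicate 2 and replicate 3, as a description of sites that share the control and were selected for high signal.

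A few members rested on unequal replicates. CG11050, with a summit 79 bp upstream of its TSS, ranked 378, 1559 and 195 in replicates 1, 2 and 3, so that replicate 2 stood apart. Dmtn went the other way and ranked 30 and 19 in replicates 1 and 2 and 151 in replicate 3, and it had rank 71 in the IDR list. Its interval of 1360 bp holds another IDR summit 215 bp away. The summit near msi, which encodes the RNA-binding protein Musashi, ranked 233, 1215 and 170, and that of eff, a ubiquitin-conjugating enzyme, ranked 455, 1195 and 204. Abl, a tyrosine kinase, ranked 680, 453 and 114. In 4 of these 5 members with the widest spread, replicate 3 gave the best rank.

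The strongest peaks lay mostly just upstream of start sites. Of the 300 summits, 228 or 76.0% (95% Wilson interval 70.9 to 80.5) lay within 500 bp of an annotated TSS, called promoter summits here, against 4706 of the other 6941 or 67.8% (66.7 to 68.9), and 68.1% of all IDR summits. Of the promoter summits, 207 of 228 or 90.8% (86.3 to 93.9) were upstream of the TSS, against 84.7% (83.6 to 85.7) of those of the other peaks. Their median position was 62.5 bp upstream, and 144 or 48.0% of all 300 summits fell within the first 100 bp upstream, against 39.4% of the others. The intervals cover counting error only, and sites are not independent replicates.

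**Figure D2:**
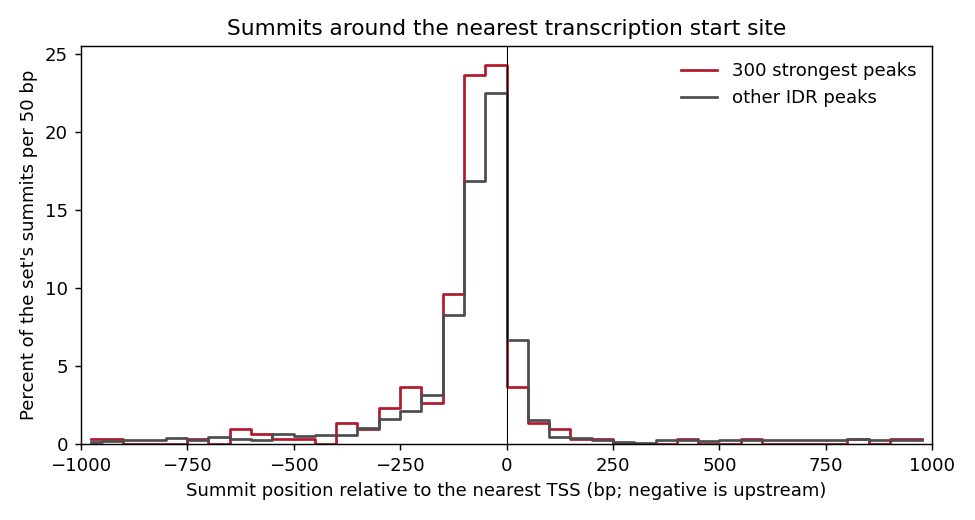
Percent of summits per 50 bp by position relative to the nearest TSS, in bp with upstream negative, for the 300 strongest peaks (red) and the other 6941 IDR peaks (grey). Both sets peak in the 100 bp upstream of the TSS, and the share in the first 50 bp downstream is 3.67% for the strongest peaks.

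A part of the summits stood beside more than 1 gene, about as often as in the rest of the list. Of the 300, 142 had 1 protein-coding gene with a TSS within 500 bp, 76 had 2, 4 had at least 3 and 78 had none. At least 2 such genes stood at 80 or 26.7% (22.0 to 31.9) of the 300, against 25.5% (24.5 to 26.6) of the other summits. For the 300 peaks next in height the share was 32.3% (27.3 to 37.8). Together the 300 strongest summits marked 302 protein-coding genes, or 2.17% of the 13945 annotated on the main arms. Divergent gene pairs held 78 or 26.0% (21.4 to 31.2) of the 300 summits, against 24.2% (23.2 to 25.2) of the other summits. Which gene a shared summit acts on was not tested. Of the 300, 27 had the TSS of a gene that is not protein-coding as their nearest. The strongest of them were the EcR summit of rank 2, 1214 bp from tRNA:Asn-GTT-1-1, and that of rank 7 near GATAe, 3866 bp from lncRNA:CR42839. Also among them were roX2 at rank 23, with a summit 19 bp upstream of the TSS, a signal of 3623 and replicate ranks of 29, 25 and 20, and lncRNA:Hsromega, the heat shock RNA omega gene, at rank 271, 96 bp upstream, which was chosen after its value was seen.

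The other 72 summits lay farther from start sites. Between genes lay 37 of them, introns held 24, 3′ UTRs held 7, coding exons held 3 and a 5′ UTR held 1. Introns away from promoters held 8% (5.43 to 11.6) of the 300 summits, against 17.5% (16.6 to 18.4) of the other peaks. Intergenic sequence away from promoters held 12.3% (9.08 to 16.5), against 10.7% (10.0 to 11.5). For the 300 peaks next in height the intron share was 9.33%. The low intron share was thus not particular to the strongest peaks. None of the 300 strongest lay in an annotated transposable element, which allows a share of up to 1.00% (3 counts of 300). Of the other 6941 summits, 21 did. Over 5 kb from any TSS lay 24 summits, and over 10 kb 10.

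The 5 most distant summits lay on X, 3L and 2L. The farthest lay on X at 18993067, in an intron of CG43759 and 57375 bp from the TSS of Diedel3, with a signal of 1317 and ranks of 154, 390 and 326. Next came a summit on X at 4493714 in an intron of lncRNA:CR32773, 36517 bp from CG3556, with ranks of 102, 199 and 281. A summit on X at 17361311 lay 17693 bp from lncRNA:CR43491, where the nearest protein-coding gene was the homeobox gene B-H1, and ranked 217, 211 and 228. In nrm, a cell adhesion gene on 3L, a summit at 23015918 lay 17546 bp from the TSS and ranked 210, 281 and 315. The intergenic summit on 2L at 11429746, 15868 bp from salm, which encodes the zinc finger factor Spalt major, was the strongest of these 5, with a signal of 2754 and ranks of 39, 45 and 43.

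Among the 25 strongest members 16 or 64.0% (44.5 to 79.8) were promoter summits. Of the first 12, ena, Prosbeta7, stwl, CG34345, PIG-B, epsilonCOP, Scm and crol were. Of ranks 13 to 25, CG17746 stood at rank 13 with a signal of 4540, l(2)gl at rank 15 with 4210, CG11885 at rank 17 with 3974, nuf at rank 20 with 3654, Tcs4 at rank 22 with 3637, roX2 at rank 23 and Syn2 at rank 24 with 3600. At rank 19 a second summit near l(2)gl, 165 bp upstream of asRNA:CR43609, had 3683. Away from promoters, Myo10A, an unconventional myosin, had a summit 998 bp upstream of its TSS with a signal of 4295 and replicate ranks of 12, 15 and 13. The summit of rank 16 lay in an intron of CG14669, 11691 bp from CG12147, with 3981 and ranks of 13, 13 and 18. The remaining distant summits of this group were in an intron of CG6051 at rank 18 with 3748, 914 bp upstream of CG34253 at rank 21 with 3648, and near the pseudogene swaPsi at rank 25 with 3534. All 25 ranked 29 or better in each of the 3 lists.

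Several sites held more than 1 of the strongest summits. The stwl locus on 3L had 3, at 14408880, 14409530 and 14410341, with ranks of 39, 4 and 44 and signals of 2812, 8792 and 2715, all in 1 interval of 3048 bp that also reaches the TSS of CG3919. The line carries a tagged transgene beside any native copy, and the part of each in these reads was not tested. At l(2)gl, a tumour suppressor of cell polarity near the end of 2L, summits at 18882 and 21787 had ranks of 15 and 19. The gene stc, which encodes a zinc finger protein of the NF-X1 type, had ranks 45 and 123, with summits at 15113400 and 15118222 on 2L. CG5445, PRL-1 and Pde1c also were nearest to or hosted a pair of summits. In all, 35 of the 300 had another of the 300 within 10 kb.

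X carried fewer of the strongest peaks than its share of the list. On X lay 39 or 13.0% (9.66 to 17.3) of the 300 summits, against 19.1% (18.2 to 20.1) of the other peaks. The 39 were 2.85% of all IDR peaks on X, while the share on the other arms ran from 3.70% on 2R to 6.82% on chromosome 4, where 3 summits stood. Per Mb, X had 1.66 of the strongest summits, 2R 1.82, chromosome 4 2.23, 3R 2.46, 2L 2.47 and 3L 2.67.

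The same comparisons were then made within each replicate list, which gives an error over replicates. The 300 strongest summits of a list were set against the 6941 that follow them in the same list. Promoter summits made up 73.0%, 78.0% and 76.7% of the 300 strongest in replicates 1, 2 and 3, against 68.0%, 67.7% and 67.4% of the others, a difference of 8.17 ± 2.82 percentage points (SD, n = 3). The groups did not overlap. With 3 lists a two-sided exact sign-flip permutation test cannot give a p below 0.25, which it gave here (exact p = 0.25). The share upstream of the TSS was higher by 7.70 ± 1.34 points. The share on X was 15.3%, 11.7% and 13.0%, against 19.2%, 18.8% and 18.8%, a difference of -5.60 ± 1.60 points. The divergent share was 25.7%, 34.3% and 25%, against 25.3%, 25.5% and 23.0%, and these groups overlapped. Of 21 properties compared in this way none could reach a lower p than 0.25. The 3 lists share the control and most of their strongest sites.

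Against the next strongest peaks the picture was different. The share of promoter summits by rank in the IDR list was 74.0%, 80.0% and 74.0% for ranks 1 to 100, 101 to 200 and 201 to 300. It was 77.3% for ranks 301 to 600, 83% (79.8 to 85.8) for ranks 601 to 1200 and 81.4% (79.1 to 83.5) for ranks 1201 to 2400, and then 70.6% for ranks 2401 to 4800 and 53.5% for the rest. In a comparison chosen after these shares were seen, the 300 strongest summits of each replicate list were set against its ranks 301 to 2400, of which 81.1%, 82.5% and 80.4% were promoter summits. The difference was then -5.43 ± 2.34 points, with the strongest lower in 3 of 3 lists. The share on X was 13.9%, 13.0% and 12.7% in those ranks, and the difference of 0.175 ± 1.39 points was smaller than its spread. The share upstream of the TSS was then higher by 2.00 ± 0.742 points, with overlapping groups. The higher promoter share and the lower X share of the strongest peaks thus held against the whole remaining list and not against the peaks next in height.

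**Figure D3:**
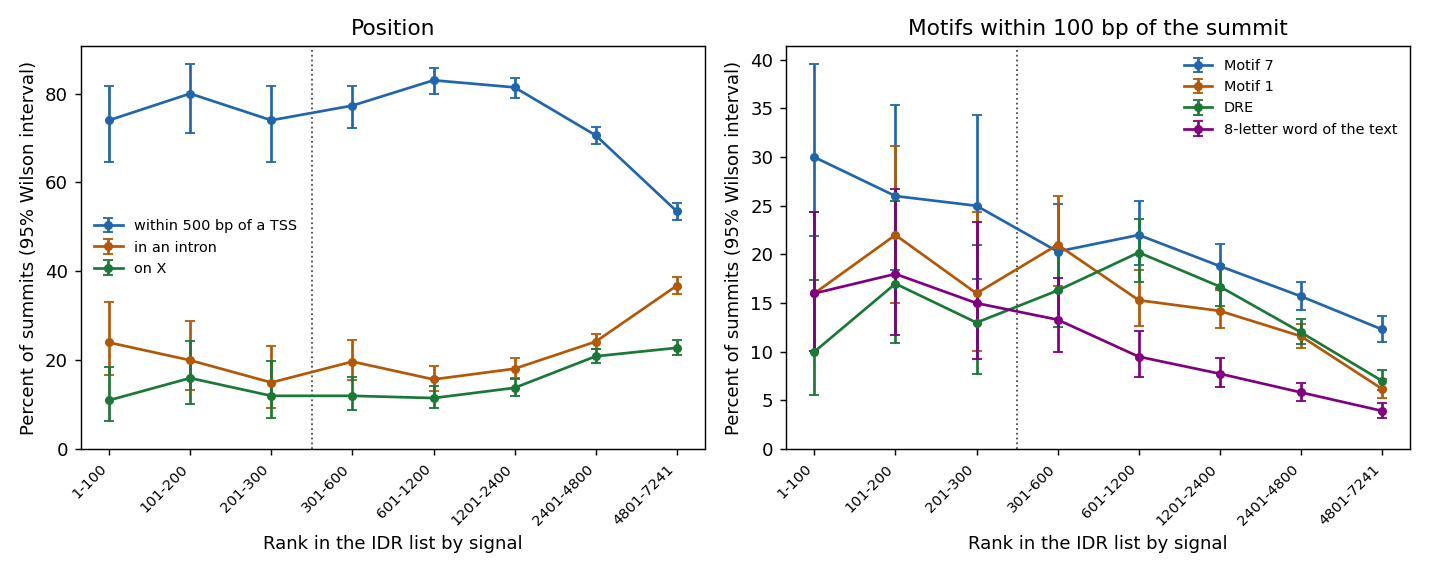
Percent of IDR summits with a given position (left) or motif within 100 bp (right) by rank in the IDR list, with 95% Wilson intervals that cover counting error only. The dotted line marks the limit at rank 300. The promoter share is highest at ranks 601 to 1200 (83%), while Motif 7 and the 8-letter word CAACACTG are most frequent among the strongest peaks. The word was chosen from the windows of the 300 strongest.

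Short sequence elements of promoters were frequent at the strongest summits. In the 201 bases centred on the summit, read on both strands, Motif 7 was found at 81 of the 300 or 27.0% (22.3 to 32.3), against 15.8% (14.9 to 16.7) of the other peaks. Motif 1 was found at 54 or 18% (14.1 to 22.7), against 10.9% (10.2 to 11.6), and the ZIPIC letters at 24 or 8% (5.43 to 11.6), against 4.05% (3.61 to 4.54). The 300 peaks next in height, ranks 301 to 600, carried Motif 1 at 63 or 21% (16.8 to 26.0), the ZIPIC letters at 23 or 7.67% (5.16 to 11.2) and Motif 7 at 61 or 20.3% (16.2 to 25.2), so that Motif 1 and ZIPIC were about as frequent there as among the 300 strongest. DRE was found at 40 or 13.3% (9.95 to 17.6), against 12% (11.2 to 12.7), and the letters CGATA, the core of the BEAF-32 sequence, part of the DRE and the shortest pattern searched, at 155 or 51.7% (46.0 to 57.3), against 45.2% (44.0 to 46.3). In 201 bases upstream of all 19253 distinct start sites of protein-coding genes, the shares were 9.18% for Motif 7, 3.33% for Motif 1, 2.47% for the ZIPIC letters, 6.21% for DRE and 36.6% for CGATA. A match to these letters is a description of the sequence and shows no binding of the named factor.

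An 8-letter word without a name in the list of motifs stood beside them. Words of 8 letters were ordered by how many of the 300 windows held them at the summit less the mean of the 2 windows centred 1000 bp to either side. GGTCACAC came first with 54 windows, followed by CAACACTG with 49 or 16.3% (12.6 to 20.9), AGTGTGAC with 47 and TATCGATA with 40. AGTGTGAC is the other strand of letters that overlap Motif 1. The flanking windows of the 300 held CAACACTG in 2 and 0 cases. The word was found at 6.14% (5.60 to 6.73) of the other IDR summits and at 2.24% of the promoter windows. It was singled out from these same 300 windows after their values were seen, so its share in them supports nothing by itself. The ranks below 300 were not used to choose it, and there its share was 13.3% at ranks 301 to 600, 9.50% at 601 to 1200, 7.75% at 1201 to 2400, 5.83% at 2401 to 4800 and 3.93% at the lowest ranks. Other words in the first 12 shared letters with it, CAGCACTG with 31 windows, AGTGTTGG with 29, which reads CCAACACT on the other strand, and CAACACTA with 29, which is also a form of Motif 7.

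In the replicate lists the named elements were again more frequent at the strongest summits than in the whole remaining list. Motif 7 was found at 25.3%, 26.0% and 29.7% of the 300 strongest in replicates 1, 2 and 3, against 15.4%, 14.5% and 16.1% of the ranks that follow, a difference of 11.6 ± 1.83 points. CAACACTG was found at 19.0%, 14% and 16.7%, against 6.01%, 5.09% and 6.11%, a difference of 10.8 ± 2.05 points that is a description only, since these sites are largely those the word was chosen from. The difference was 7.63 ± 1.10 points for Motif 1, 3.11 ± 0.619 for the ZIPIC letters, 7.78 ± 0.974 for CGATA and 2.74 ± 0.386 for DRE, and in each of these the groups did not overlap (exact p = 0.25 for each, the smallest 3 lists allow). Against ranks 301 to 2400 alone, the difference was 7.54 ± 2.88 points for Motif 7, 7.92 ± 1.16 for CAACACTG, 3.35 ± 0.552 for Motif 1 and 1.67 ± 0.787 for the ZIPIC letters, again without overlap. DRE was then less frequent among the strongest, by -2.41 ± 0.647 points, and CGATA by -1.70 ± 0.411 points with overlapping groups. Motif 7, Motif 1 and the ZIPIC letters were thus more frequent at the strongest peaks under both comparisons, and DRE and CGATA under one. For Motif 1 and the ZIPIC letters this does not extend to the peaks at ranks 301 to 600 of the IDR list, whose shares are given above.

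**Figure D4:**
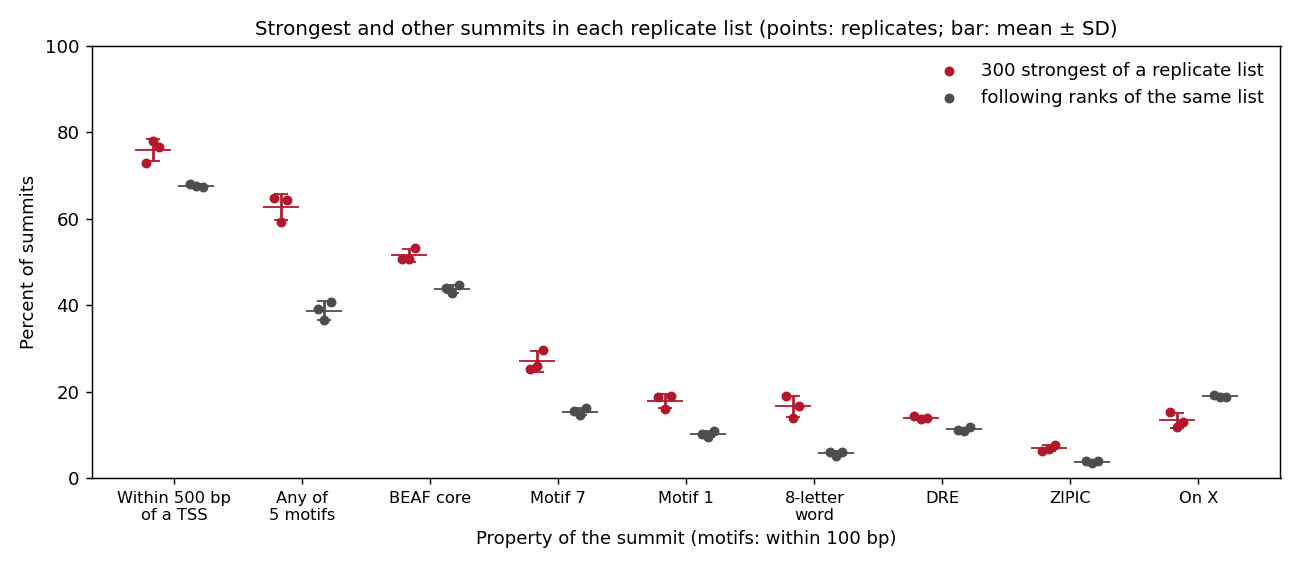
Percent of summits with each property in the 3 replicate lists, for the 300 strongest of a list (red, left of each pair) and the following 6941 ranks of the same list (grey, right of each pair), with points for replicates and bars for the mean and SD. Among the 300 strongest every property shown is more frequent in each list except location on X, which is less frequent, and the 8-letter word is CAACACTG.

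The other elements searched were about as frequent at the strongest summits as at the others, or less frequent. Motif 6 was found at 11.7% (8.51 to 15.8) of the 300 and 13.5% (12.7 to 14.3) of the other summits, the E-box CAGCTG at 14.3% (10.8 to 18.8) and 14% (13.2 to 14.9), and the TATA box at 13.3% (9.95 to 17.6) and 14.1% (13.3 to 15.0). For these 3 the groups overlapped in the replicate lists. GAGAGAG, bound by GAGA factor, was found at 2.33% (1.13 to 4.74), against 4.21% (3.76 to 4.71), the Su(Hw) core at 1.67% (0.714 to 3.84), against 2.68% (2.33 to 3.09), and the GATA site TGATAAG at 2.00% (0.920 to 4.29), against 2.97% (2.59 to 3.39). These 3 were less frequent in the 300 strongest of each replicate list, by -1.68 ± 0.752, -1.56 ± 0.458 and -1.09 ± 0.373 points. Against ranks 301 to 2400 alone, the difference was -0.381 ± 0.29 points for GAGAGAG and -0.508 ± 0.463 for TGATAAG, with overlapping groups. The Su(Hw) core remained less frequent in the 300 strongest of each list under that comparison, without overlap. Its shares there were low, 1.00%, 0.333% and 1.67%, against 2.00%, 1.86% and 2.14%. Away from promoters it was found at 5.56% (2.18 to 13.4) of the members, against 6.53% (5.58 to 7.63) of the other IDR peaks. Whether position accounts for the difference was not tested. CAGGTAG, the site of the early activator Zelda, was found at none of the 300, which allows a share of up to 1.00% (3 counts of 300), and at 0.620% of the other summits, a share within that limit. It was also found at 0%, 0% and 0% of the 300 strongest summits of replicates 1, 2 and 3, against 0.836%, 0.735% and 0.620% of the ranks that follow, and the groups did not overlap (exact p = 0.25).

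Copies of Motif 1, DRE and CAACACTG lay mostly near the summit, and few windows held more than 1 of these 3. The median distance from the summit to the nearest copy within 250 bp was 46.5 bp for Motif 1 over 67 members, 55.5 bp for DRE over 55 and 40.0 bp for CAACACTG over 54, and none of these 54 members had its nearest copy of the word beyond 112.5 bp. Among the other IDR peaks the medians were 49.5, 41.5 and 42.0 bp. CAACACTG was chosen from the summit windows of the members, so its closeness to their summits is a description only. Of the 300, 41 held Motif 1 alone of these 3 elements, 41 held CAACACTG alone and 31 held DRE alone, 6 held Motif 1 with CAACACTG, 7 Motif 1 with DRE and 2 DRE with CAACACTG. No member held all 3. Motif 7 and the ZIPIC letters were left out of this count, and whether elements avoid each other was not tested. At least 1 of the 5 elements shown in capitals above was found in 186 or 62.0% (56.4 to 67.3) of the 300 windows, against 60.7% (55.0 to 66.0) at ranks 301 to 600, 40.6% (39.5 to 41.8) of all the other peaks and 20.2% of all promoter windows, which leaves 114 strong sites with none of them. Away from promoters, 34 of 72 or 47.2% (36.1 to 58.6) held at least 1, against 24.0% (22.3 to 25.8) of the other peaks away from promoters. There Motif 7 was found at 25% (16.4 to 36.1), against 10.1% (8.93 to 11.4), and CAACACTG at 9.72% (4.79 to 18.7), against 5.82% (4.92 to 6.86). At promoters CAACACTG was found at 42 of 228 or 18.4% (13.9 to 24.0), against 6.29% (5.63 to 7.02). The word, which is 1 of the 5 elements, was chosen from the windows of the 300, so these shares are a description only.

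**Figure D5:**
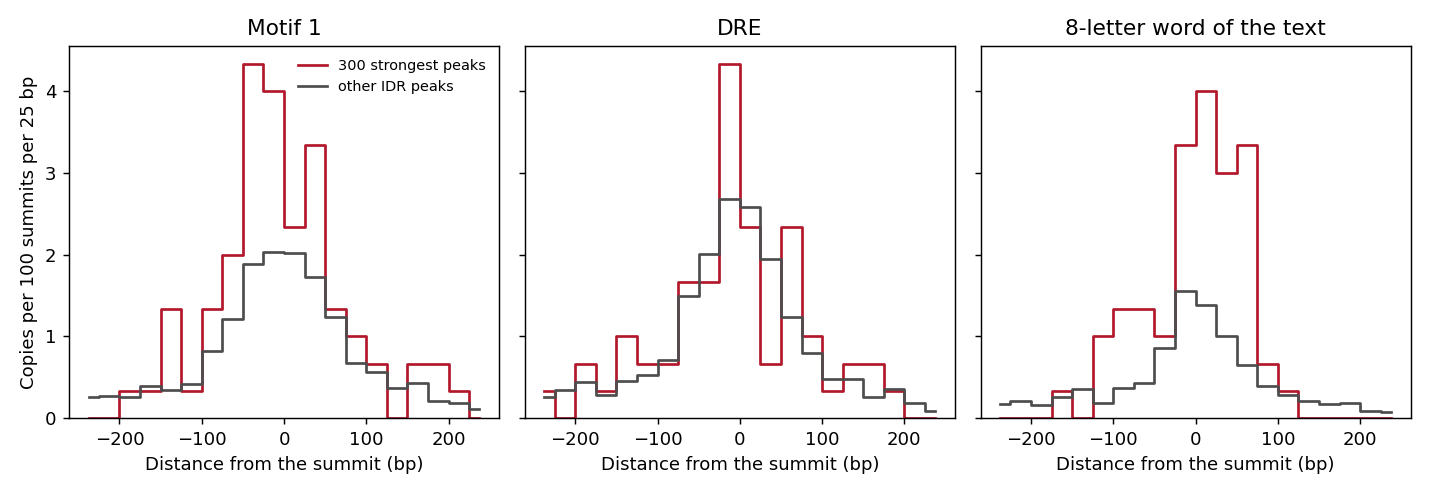
Copies of 3 elements per 100 summits and per 25 bp by distance from the summit along the plus strand, for the 300 strongest peaks (red) and the other 6941 IDR peaks (grey). The 8-letter word is CAACACTG, chosen from the windows of the 300 strongest peaks. Copies gather within about 100 bp of the summit in both sets, and for Motif 1 and the word the strongest peaks have the higher centre.

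The genes at these promoters came from many pathways, and no gene group was marked throughout. Set beside the 2.17% of all protein-coding genes with one of the 300 summits, 42.1% had any IDR summit within 500 bp of a TSS. The counts that follow are small and were not tested. Of the genes for protein production and turnover, 4 of 91 cytoplasmic ribosomal protein genes had one of the 300, namely RpL14 with a signal of 1812, RpL7 with 1650, RpL23A with 1495 and RpS30 with 1399, while 75 of the 91 had an IDR summit of any height. The RpL14 summit is also that of Nelf-E, a subunit of the factor that pauses RNA polymerase II. Mitochondrial ribosomal proteins had 2 of 73, mRpS10 with 1820 and mRpS2 with 1272. Proteasome subunits had 2 of 48, Prosbeta7 with 9097 and Rpn6 of the regulatory particle with 1272. None of 51 translation factor genes had one, and 36 had an IDR summit of any height. The list is too short to set this apart from the 2.17% of all genes.

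Genes of vesicle transport and of membrane anchors included 2 of the first 10 peaks. Of 13 COPI and COPII coat genes only epsilonCOP had one, with 4842, at rank 10, 145 bp from the summit, which lies between it and KFase. Of 21 genes of glycosylphosphatidylinositol (GPI) anchor synthesis, PIG-B, a mannosyltransferase, had a signal of 6769, PIG-A, of the first step of the pathway, had 2717 and PIG-F had 1420. The PIG-B summit ranked 5, 5 and 6 in replicates 1, 2 and 3 and that of PIG-A 42, 32 and 52, while that of PIG-F ranked 151, 105 and 352. PIG-B held both Motif 1 and CAACACTG. PIG-B, PIG-A and PIG-F share their summits with CG32263, Vps50 and Lon. Of the 21 GPI anchor genes, 20 had an IDR summit of any height.

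Of the genes in the lists of chromatin and transcription regulators, 4 had one of the 300. Regulators outside these lists, such as crol and cic, also had one and were not counted. Of 19 Polycomb group genes, Scm had a signal of 4752 and replicate ranks of 11, 14 and 10, and esc, a subunit of the histone H3 methyltransferase complex, had 1687 and ranks of 146, 164 and 137 with Motif 1 and CAACACTG in its window. Of the 19 Polycomb group genes, 13 had an IDR summit of any height. None of 15 Trithorax group genes, 16 genes of insulator and interband proteins or 14 genes of heterochromatin and silencing had one of the 300, and 11, 15 and 10 of them had an IDR summit of any height. With 2.17% of all protein-coding genes marked, lists this short can hold none without standing apart. Of 25 genes of the ecdysone response and of nuclear receptors only ERR had one, with 1638, at a summit that lies nearer to Atg18a. The EcR summit does not count here, since it lies 5667 bp from the nearest protein-coding TSS. Of 19 gap and pair-rule genes only bcd, the anterior determinant, had one, with 1493 and ranks of 282, 381 and 159. None of 8 Hox genes and none of 13 GATA and Sox factor genes had one within 500 bp, and the strong summits in pb and near GATAe and Sox102F all lie farther from a TSS.

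Cell cycle and germline genes had several, and most genes of these lists had an IDR summit of any height, 18 of 22 and 14 of 18. Of 22 cell cycle genes, the mitotic kinase gene polo had a signal of 2017 and ranks of 139, 110 and 72, Cdk4 had 1629 and ranks of 72, 203 and 182, and CycB had 1285 and ranks of 465, 1192 and 207. CycB was thus among the first 300 of replicate 3 alone. Of 18 germline genes, stwl had 8792, Rbfox1, an RNA-binding protein, had 2368, zpg, the germline gap junction protein, had 1957 and bgcn, the partner of Bam in differentiation, had 1748. Rbfox1 ranked 150, 151 and 44, zpg 87, 171 and 82, and bgcn 86, 271 and 119, each within the first 300 of every list. The zpg summit lies 77 bp from its TSS and 70 bp from that of Rexo5. Without stwl, whose reads can include the transgene, 3 germline genes remained. Of 14 actin regulators only ena had one of the 300, and of 7 genes with a MADF domain only stwl.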

How the data were processed

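ChIP-seq of Stwl-GFP was deposited as peak lists: 1 per replicate and 1 that passed the IDR filter. The authors' signal value per peak, deposited in each list on a scale of its own, ranked the peaks and was used for nothing else but description. The summit offset is also the authors' deposited value (unit other: bp from the peak start). Per the accompanying text files each replicate list was made with a control library. The build is dm6, per the labels. The sources used here name no aligner, peak caller or IDR threshold, and read depth is unknown, so intervals cover counting error only. No column of the files used was left without a sample or group.

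Summits on the main arms were set against TSSs of Ensembl BDGP6.54 (release 115, transposon genes left out) and the RefSeq sequence of the same assembly, counted from 1. Promoter means a TSS within 500 bp, a motif window 100 bp to either side, and a replicate match 150 bp. The 14 motifs and 18 gene lists were searched by letters and by symbol, with 2 symbols matched through a unique synonym (lid to Kdm5, Dip3 to Dlip3) and 2 corrected by hand (caly, nanos). Shares have 95% Wilson intervals. Differences over the 3 replicate lists were tested with an exact sign-flip permutation test. Nothing says whether the biological replicates came from separate cultures of flies, so their spread may be partly technical. Python 3.11.15, pandas 2.3.3 and scipy 1.17.1 were used. The assignment of summits to the nearest TSS and the motif search were tested on simulated sites with known answers. The replicate match and the permutation test were not tested in this way.

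The members, lists and motifs were chosen with earlier results of these data known. Genes named are those at the 25 strongest peaks, up to 3 per list (all 4 where a list had 4), the 5 with the widest spread of ranks, the 5 farthest from a TSS, those with several summits, those at the limit, and stwl. Others were chosen after their values were seen, among them CG5611, lncRNA:Hsromega and Phs. Alternatives are given in the closing section.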

Additional observations from a re-analysis of the deposited data

How the results depend on the processing

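The share of promoter summits among the strongest peaks, 76.0%, was 70.7% with a TSS distance of 250 bp and also 70.7% among the 150 strongest peaks, both just outside the interval of the main value. It was 80.3% with 1000 bp, 74.0% with TSSs of protein-coding genes only, 76.7% among the 600 strongest, and between 74.0% and 77.0% when peaks were chosen by their mean rank without each replicate in turn. Without the 3 summits at stwl it was 75.8%. Choosing peaks without replicates 1, 2 and 3 kept 278, 273 and 253 of the 300 members. The count of members in the first 300 of all lists, 192, ran from 209 to 226 when a list was left out, and was 280 for the first 600. Set against the next ranks up to 2400 only, a choice made after seeing the data, the promoter difference over replicate lists was -5.43 points instead of 8.17, that of divergent pairs -5.92 instead of 3.71, that of X 0.175 instead of -5.60 that of DRE -2.41 instead of 2.74 and that of CGATA -1.70 instead of 7.78. Leaving out each replicate gave a promoter difference between 7.11 and 9.76 points. A motif window of 50 bp lowered the share of CAACACTG to 10.3%, of Motif 1 to 11.3%, of Motif 7 to 16.3% and of DRE to 8%, and one of 200 bp raised Motif 7 to 36.3% and DRE to 18%. Among the 150 strongest peaks the divergent share was 20.7%, against 24.2% of the peaks outside the 300, while it was 26.0% among all 300. The number of sites and of lists, 3, limits the precision, and read depth is unknown.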
